A study of Mus musculus with 6 samples.

Results

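The members described here are 63 homeobox genes of 17 families other than the Hox clusters, among 18194 genes with a symbol of their own on the array. They were picked by gene name, and the choice was made with earlier results of these data known. Each probe set of the Affymetrix Mouse 430 2.0 array that the platform's table assigned to a single symbol of the Irx, Lhx, Dlx, Msx, Otx, Emx, En, Gbx, Pitx, Alx, Prrx, Pbx, Meis, Dbx, Barx or Nkx families or of the sine oculis family (Six2, Six3, Six4, Six5 and Six6) was taken, with Nkx2-5 left out. This gave 102 probe sets. RNA came from whole FVB embryos of 10.5 days of gestation. Each of 3 control pools and 3 diabetes-exposed pools combined equal amounts of RNA from 3 embryos, each from a different pregnancy, and was hybridised to 1 array. The dams of the exposed embryos had received 2 injections of 100 mg streptozotocin per kg body weight, a toxin of the pancreatic beta cells that make insulin, and their blood glucose exceeded 250 mg per dl. All embryos looked morphologically normal, and the sources used here do not say whether control dams were injected with buffer.

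Homeobox genes encode transcription factors that bind DNA through a homeodomain. Outside the Hox clusters, many of them mark regions of the head, the neural tube, the pharyngeal arches and the limb buds, where overlapping territories of these factors fix what a cell becomes. Otx and Emx factors, Six3 and Six6 act in the forebrain, Otx and Gbx genes meet at the boundary of midbrain and hindbrain, where En genes are expressed, and Irx, Dbx, Nkx and Lhx genes divide the neural tube into domains of progenitors and neurons. Msx, Barx, Prrx, Alx, Pitx and Dlx genes act mainly in arch and limb mesenchyme and in surface ectoderm, and Pbx and Meis proteins bind DNA together with Hox proteins.

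The promoters of 4 members are shown by choice. Irx3 and Six5 were the members that passed in a fit described below, with a measure of array quality as a covariate. Their share there was 3.64%, against 1.73% of all genes lower. Lhx2 was lower in each exposed pool by a wide margin, and Six4 was the single member read as higher. Each window runs from 250 bases before to 50 bases after the start of the RefSeq gene in GRCm38.p6, 5′ to 3′ on the strand of the gene, and capitals mark the letters GGGCGG (GC box) and ACGTG (core of the site bound by hypoxia-inducible factors) on either strand. The windows are chr8:91801605-91801904 on the minus strand for Irx3, chr7:19094294-19094593 on the plus strand for Six5, chr2:38339031-38339330 on the plus strand for Lhx2 and chr12:73113196-73113495 on the minus strand for Six4.
Irx3: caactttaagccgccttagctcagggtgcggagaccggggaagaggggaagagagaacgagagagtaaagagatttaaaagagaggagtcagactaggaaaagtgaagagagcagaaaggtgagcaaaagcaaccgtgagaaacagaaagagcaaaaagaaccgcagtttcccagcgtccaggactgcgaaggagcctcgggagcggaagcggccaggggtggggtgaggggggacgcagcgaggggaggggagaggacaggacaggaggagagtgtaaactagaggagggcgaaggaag
Six5: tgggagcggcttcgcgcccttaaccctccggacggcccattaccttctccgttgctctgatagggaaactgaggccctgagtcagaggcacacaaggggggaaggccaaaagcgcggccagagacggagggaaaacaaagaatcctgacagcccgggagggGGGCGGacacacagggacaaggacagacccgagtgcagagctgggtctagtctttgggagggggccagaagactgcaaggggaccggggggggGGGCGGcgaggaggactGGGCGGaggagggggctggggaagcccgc
Lhx2: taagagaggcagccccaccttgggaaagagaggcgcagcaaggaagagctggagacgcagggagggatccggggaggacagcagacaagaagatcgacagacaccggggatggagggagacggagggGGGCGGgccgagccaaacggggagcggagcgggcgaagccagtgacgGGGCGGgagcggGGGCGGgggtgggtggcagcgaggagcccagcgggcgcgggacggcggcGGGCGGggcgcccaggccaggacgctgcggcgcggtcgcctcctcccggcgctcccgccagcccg
Six4: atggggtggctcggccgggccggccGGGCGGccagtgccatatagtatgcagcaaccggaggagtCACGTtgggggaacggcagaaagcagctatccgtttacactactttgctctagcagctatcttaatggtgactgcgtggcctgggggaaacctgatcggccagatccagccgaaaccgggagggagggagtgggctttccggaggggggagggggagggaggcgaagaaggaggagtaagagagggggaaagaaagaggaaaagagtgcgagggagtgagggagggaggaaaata

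The Six5 window held 3 GC boxes, that of Lhx2 4, that of Six4 1 and that of Irx3 0, and the Six4 window was the only one of the 4 with ACGTG. A window was found for 45 of the 63 members. In these, the median content of G and C was 64.3%, against 52.7% in 27025 windows of all genes, and for the 19 of them whose gene was lower it was 65.7%. GGGCGG was found in 68.9% of the members' windows, in 63.2% of those of the lower genes and in 35.9% of all windows. For CCAAT the shares were 44.4%, 42.1% and 37.9%, for TATAAA 11.1%, 21.1% and 14.2%, for TAATTA, a core that many homeodomains bind, 8.89%, 10.5% and 5.31%, for ACGTG 22.2%, 21.1% and 19.7%, and for CAGCTG 11.1%, 15.8% and 16.1%. These motifs were sought on both strands, none of them contains another, and a match describes letters and no binding.

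Control and diabetes-exposed pools were compared to ask which of these genes differed in embryos of diabetic pregnancies. Each gene was placed in a single group. The lower members lay in the midbrain-hindbrain boundary group (En1, En2, Gbx1 and Gbx2, 4 of 4 genes) and in the dorsoventral neural tube group (8 of 16). Others lay in the craniofacial and limb group (5 of 15), in the forebrain group (3 of 11) and among the Hox cofactors (2 of 6). In the group of Six2, Six4 and Six5, Six2 and Six5 were lower (2 of 3) and Six4 was higher. Of the 63 genes, 55 had a probe set above the filter on dim signals, and each was read at its brightest such probe set. By limma, with p-values adjusted by Benjamini-Hochberg across the 30025 probe sets tested, 24 genes were lower at an adjusted p under 0.05 and 1 was higher, while 30 did not pass. Among all 13956 genes, 19.9% were lower and 17.6% higher, or 37.5% in either direction, against 43.6% and 1.82% of the members. At a change of at least 2-fold, 10 members or 18.2% were lower, against 6.01% of all genes, and 0 members were higher, against 1.03%. The median log2 fold change was -0.46 over the members and -0.00025 over all genes. Counted by probe set, 36 of 81 tested probe sets were lower (44.4%, against 21.8% of all) and 3 were higher (3.70%, against 14.4%). By at least 2-fold 18 were lower (22.2%, against 11% of all) and 0 higher (against 1.24%). The groups of pools did not overlap at 47 of the 81 (58.0%, against 49.9%). At 43 of the 81 the exposed pools were lower without overlap, against 28% of all tested probe sets. In bulk RNA of whole embryos, fewer cells of a type and less RNA per cell cannot be told apart.

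**Figure D1:**
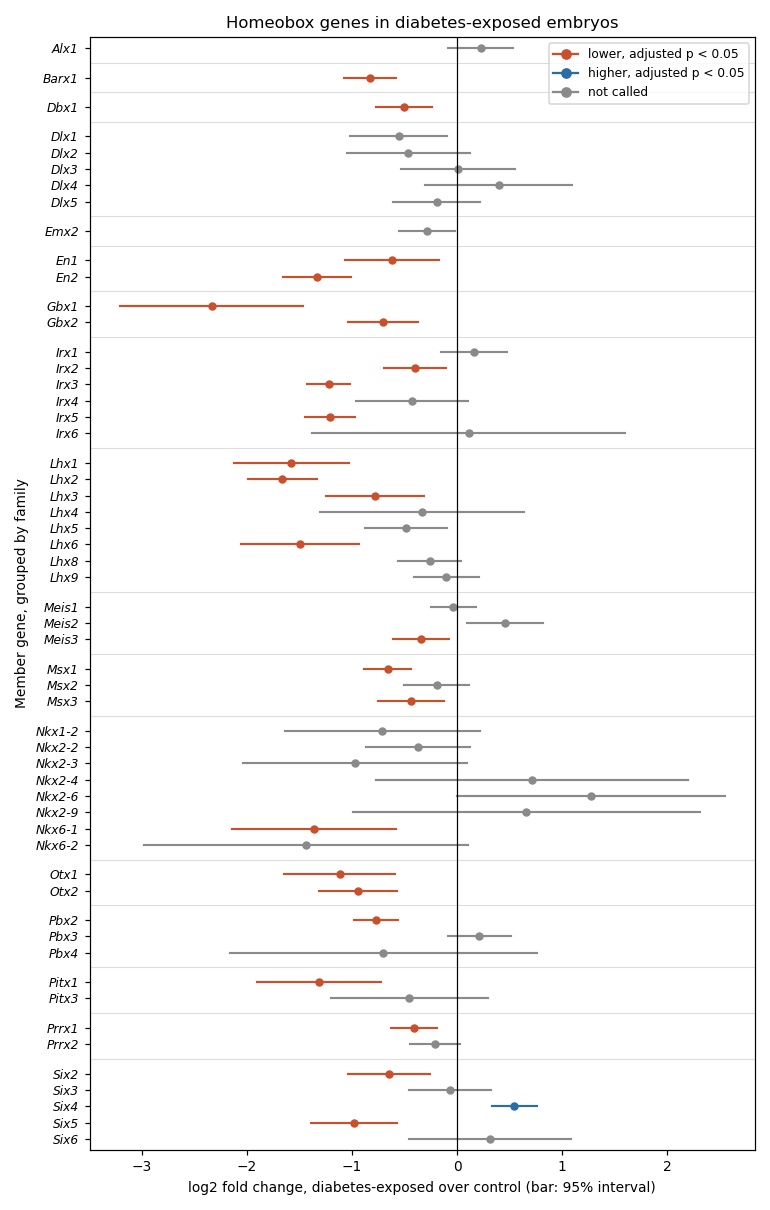
Log2 fold change of diabetes-exposed over control pools (horizontal axis) with its 95% interval for each of the 55 tested member genes, listed by family. Orange marks the 24 genes called lower, blue the 1 called higher (Six4) and grey the 30 without a call. The leftmost point is Gbx1, whose size rests on dim exposed signals: with a pseudocount of 32 it stood at -1.36 and Lhx2 at -1.57.

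The groups of pools did not overlap for 30 of the 55 genes (54.5%, against 52.3% of all genes). The exposed pools were the lower ones, without overlap, for 29 of the 55, against 26.5% of all genes. Relative to the mean of the controls, the median member stood at -0.45, -0.28 and -0.57 on the log2 scale in exposed pools 1, 2 and 3. The median of all genes stood at 0.016, 0.022 and -0.012 in the same pools. Each exposed pool showed the shift, and pool 2 showed the smallest one. The 8 members left out as dim were Alx4, Barx2, Dbx2, Dlx6, Emx1, Nkx2-1, Nkx3-2 and Nkx6-3, and their signal did not exceed 50.1 in any pool.

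Array quality moved with the groups. The poly-A spikes, bacterial transcripts added to each RNA sample, gave a ratio of 3′ to middle signal of 2.10, 2.07 and 2.52 for control pools 1 to 3 and of 6.56, 3.47 and 7.00 for exposed pools 1 to 3, so that exposed pool 2 lay nearest to the controls. For the embryos' own actin transcript, 3′ over 5′ signal was 1.71, 1.76 and 2.19 in controls and 10.1, 3.09 and 10.3 in exposed pools, and for Gapdh it was 0.824, 0.832 and 0.921 against 1.84, 0.972 and 1.72. With the log2 of this ratio as a covariate, 2 of the 55 members passed, Irx3 and Six5, both lower. This was 3.64%, against 1.73% of all genes lower and 0.0788% higher. Of the 24 lower genes, 2 kept their call there and 23 had a log2 fold change below 0. With exposed pool 2 set alone against the 3 controls, the log2 fold change of all 24 was below 0 and 16 of them passed (16 of 55 members were lower and 1 higher, against 11.5% and 6.43% of all genes). That fit assumes that the lone pool varies like the controls. The 24 genes had been called lower on the same arrays that both of these fits used, exposed pool 2 and the 3 controls included. Their direction, with the covariate or in pool 2 alone, was therefore not an independent check against the spike ratio. The part of the spike ratio in any single result below was not tested beyond these fits.

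**Figure D2:**
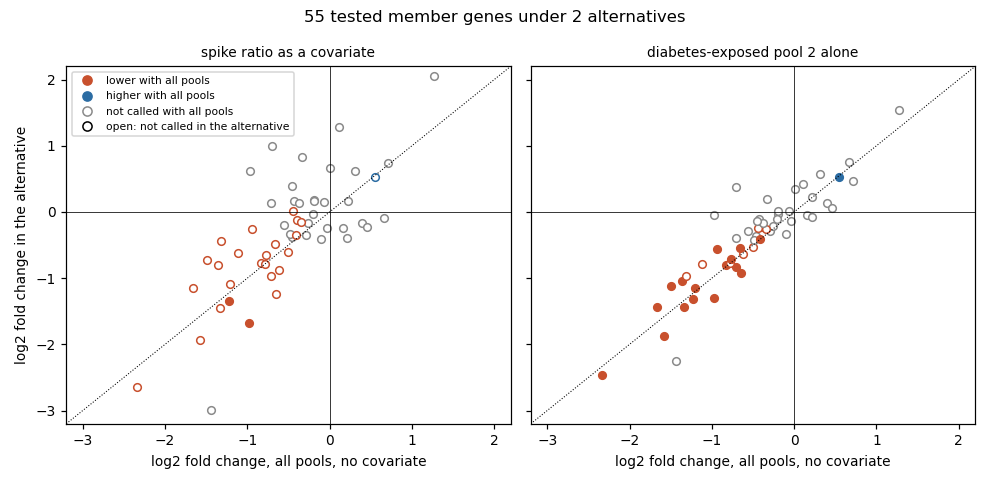
Log2 fold change of the 55 tested members with all pools and no covariate (horizontal axis) against that with the spike ratio as a covariate (left panel, vertical axis) and with diabetes-exposed pool 2 as the only exposed pool (right panel). Filled points passed an adjusted p of 0.05 in the alternative, which were Irx3 and Six5 on the left and 17 genes on the right, and the dotted line marks equal values.

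Signals are given below in arbitrary units, in the order of pools 1 to 3 of each group, and changes on the log2 scale. All 4 genes placed in the midbrain-hindbrain boundary group, En1, En2, Gbx1 and Gbx2, were lower. Gbx1 is also a gene of the spinal cord, and Otx2 was placed in the forebrain group. En2, a homeobox gene of the midbrain and cerebellar territory, gave a signal of 496, 598 and 512 in controls against 235, 198 and 203 in exposed pools. The groups lay far apart, and En2 fell by 1.33 on the log2 scale (SE 0.14, adjusted p = 0.00057). It stood at -1.45 with the spike covariate (adjusted p = 0.063) and at -1.43 in exposed pool 2 alone (adjusted p = 0.0054). En1, its close relative, which also acts in limb ectoderm, gave 236, 236 and 357 in controls against 175, 174 and 181 in exposed pools. The exposed pools were nearly equal to each other and the third control pool was the highest of all. En1 fell by 0.62 (SE 0.20, adjusted p = 0.038), a call that ended when any 1 pool was left out (adjusted p between 0.053 and 0.093), under the 3 other scalings of the arrays (between 0.2 and 0.37) and in pool 2 alone (0.19).

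Gbx2, which sets the anterior hindbrain against the Otx2 territory, gave 341, 339 and 351 in controls against 200.0, 194 and 239.8 in exposed pools. The controls were close to each other and every exposed pool was lower. Gbx2 fell by 0.71 (SE 0.15, adjusted p = 0.0064), and under median centring of the arrays it stood at -0.41 (adjusted p = 0.12) and under quantile normalization at -0.39 (0.088). Gbx1, expressed in the hindbrain and spinal cord, had dim signals of 121, 95.1 and 99.9 in controls against 15.2, 18.9 and 30.9 in exposed pools. The groups did not overlap, and Gbx1 was lower at -2.34 (SE 0.38, adjusted p = 0.0025). Its exposed signals were in the range of the members left out as dim, and the size rests on them: with a pseudocount of 32 it was -1.36 (adjusted p = 0.0012).

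Of the forebrain and anterior head group, Lhx2, Otx1 and Otx2 were lower and 8 of 11 tested genes did not pass. Lhx2, a LIM-homeodomain factor needed for the eye and the cerebral cortex, gave 1174.5, 1085 and 934 in controls against 331, 391 and 289.9 in exposed pools. The groups were far apart, with every exposed pool well below the lowest control. Lhx2 fell by 1.66 (SE 0.15, adjusted p = 0.00027). With the covariate it stood at -1.14 (adjusted p = 0.063).

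Otx2, without which the forebrain and midbrain do not form, gave 1049, 1082 and 1108 in controls against 472.5, 736 and 512 in exposed pools. Exposed pool 2 lay between the other exposed pools and the controls. Otx2 fell by 0.94 (SE 0.16, adjusted p = 0.003), and stood at -0.55 in pool 2 alone (adjusted p = 0.025). Otx1, which acts later in the cortex and inner ear, gave 223, 335 and 343 in controls against 119, 171 and 123 in exposed pools. It fell by 1.12 (SE 0.23, adjusted p = 0.0064) and was not called in pool 2 alone, at -0.78 (adjusted p = 0.12). With the covariate the log2 fold change was -0.26 for Otx2 (adjusted p = 0.66) and -0.61 for Otx1 (0.6).

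The other anterior genes showed no call. Emx2, a factor of the dorsal forebrain and urogenital ridge, gave 590.4, 537 and 590.5 in controls against 432, 466 and 509 in exposed pools. The groups did not overlap, but the difference was small, at -0.29 with a 95% interval from -0.56 to -0.021 and an adjusted p of 0.088. Lhx5, of the early forebrain, stood at -0.49 (adjusted p = 0.054) and Six3, which keeps the anterior forebrain, at -0.068 (95% interval -0.46 to 0.32, adjusted p = 0.79). Six6 of the eye field and Nkx2-4 were dim, with mean signals of 73.05 and 48.07. Six6 stood at 0.31 (95% interval -0.45 to 1.08) and Nkx2-4 at 0.71 (-0.78 to 2.19), with adjusted p of 0.51 and 0.44.

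None of the 5 tested Dlx genes, which pattern the ventral forebrain and the pharyngeal arches, was called in either direction. Of all genes, 37.5% were called. Dlx2 gave 558, 696 and 617 in controls against 292, 483 and 650.1 in exposed pools. Exposed pool 3 lay among the controls and pool 1 far below, so that the groups overlapped and the log2 fold change of -0.46 had a 95% interval from -1.05 to 0.13 (adjusted p = 0.2). Without exposed pool 3 it was -0.73 (adjusted p = 0.049). Its neighbour Dlx1 stood at -0.56 (adjusted p = 0.062), without overlap of the groups. Dlx3, Dlx4 and Dlx5 stood at 0.008, 0.40 and -0.19 with adjusted p of 0.98, 0.35 and 0.45. Dlx4 was dim, with a mean signal of 64.75.

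**Figure D3:**
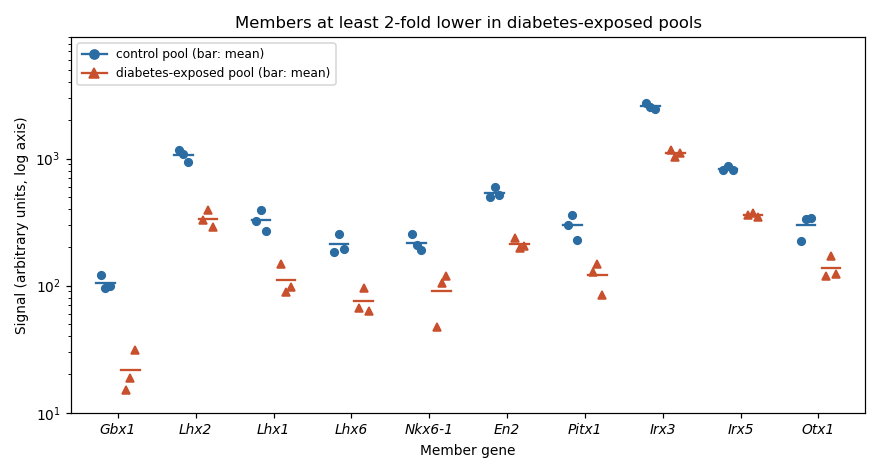
Signal in arbitrary units (vertical log axis) of the 10 members that were at least 2-fold lower, in order of their log2 fold change, each pool as 1 point and each group's mean as a bar. For each of the 10 genes the 3 diabetes-exposed pools lay below the 3 control pools.

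In the dorsoventral group of the neural tube, Irx3 and Irx5 showed decreases of nearly the same size. Irx3, a factor of the intermediate neural tube and of limb and heart progenitors, gave 2723, 2544 and 2460.3 in controls against 1169, 1035 and 1104.5 in exposed pools. Irx5, which lies beside it in the genome, gave 816.5, 868 and 818 in controls against 360.4, 375 and 346.5 in exposed pools. Pools of a group were close to each other for both genes, and the groups were well apart. Irx3 fell by 1.22 (SE 0.09, adjusted p = 0.00019) and Irx5 by 1.21 (SE 0.11, adjusted p = 0.00027). With the spike covariate Irx3 stood at -1.35 (adjusted p = 0.017) and Irx5 at -1.08 (0.055), and in exposed pool 2 alone at -1.31 and -1.15 (0.0021 and 0.0043).

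The 6 Iroquois genes lie in 2 groups of 3 neighbours, by the gene order of GRCm38.p6. Irx6, the third neighbour of Irx3 and Irx5, was dim, with 63.5, 23.2 and 13 in controls against 35, 35.9 and 19.2 in exposed pools. These signals overlapped and the interval of its change was wide, from -1.38 to 1.60. Irx1, Irx2 and Irx4, which lie together on another chromosome, stood at 0.16, -0.40 and -0.43. Of these Irx2 passed, with 469, 441 and 485 in controls against 347, 395 and 318 in exposed pools (adjusted p = 0.042), and Irx1 (95% interval -0.16 to 0.48) and Irx4 (adjusted p = 0.19) did not. Whether Irx3 and Irx5 differ from the other Iroquois genes was not tested. The call of Irx2 ended without any 1 pool except exposed pool 2 (adjusted p between 0.086 and 0.13) under each other scaling (between 0.26 and 0.69) and in pool 2 alone (0.38).

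**Figure D4:**
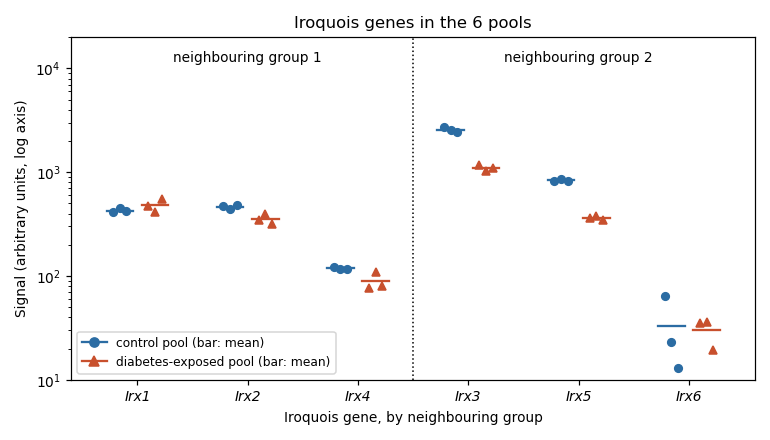
Signal in arbitrary units (vertical log axis) of the 6 Iroquois genes, ordered by their 2 groups of neighbouring genes, each pool as 1 point and each group's mean as a bar. Irx3 and Irx5 fell in all 3 diabetes-exposed pools, from between 2460.3 and 2723 to between 1035 and 1169 for Irx3, while the groups of Irx1 and of the dim Irx6 overlapped.

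The next 3 genes, of ventral and intermediate progenitors and interneurons, were lower in every exposed pool. Lhx1, a LIM-homeodomain factor of interneurons and of the kidney duct, gave 322, 392 and 271 in controls against 149, 88.6 and 97.8 in exposed pools. It fell by 1.58 (SE 0.24, adjusted p = 0.0019), and stood at -1.87 in pool 2 alone, the lowest of the exposed pools. Nkx6-1, which specifies motor neuron progenitors, gave 253, 208 and 191 in controls against 47.5, 105 and 119 in exposed pools. Its exposed pools were spread more than its controls, and the decrease of 1.36 (SE 0.34, adjusted p = 0.015) did not pass without control pool 1 (-1.24, adjusted p = 0.062). Dbx1, which marks progenitors of commissural interneurons, gave 597, 574 and 669 in controls against 460.4, 424.5 and 411 in exposed pools, a decrease of 0.50 (SE 0.12, adjusted p = 0.011) that was not called under any other scaling (adjusted p between 0.069 and 0.4) or in exposed pool 2 alone (0.066).

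Lhx3, a factor of motor neurons and the pituitary, fell by 0.78 (SE 0.21, adjusted p = 0.018), with 219.7, 178 and 231 in controls against 142, 123 and 102 in exposed pools, and its adjusted p was 0.067 without control pool 1, 0.051 without control pool 3 and 0.058 without exposed pool 3. Its call also ended under the 3 other scalings (at -0.49, -0.45 and -0.56, adjusted p between 0.067 and 0.14), with the mean of its probe sets (0.07) and in exposed pool 2 alone (0.094). Msx3, a marker of the dorsal neural tube, gave 564, 558 and 481 in controls against 372, 452 and 359 in exposed pools. Msx3 fell by 0.44 (SE 0.14, adjusted p = 0.035), and its log2 fold change was 0.012 with the spike covariate, the only lower member that crossed 0 there. The call of Msx3 ended without control pool 1 or 2 and without exposed pool 1 or 3 (adjusted p between 0.11 and 0.12). It also ended under each other scaling, at -0.14, -0.17 and -0.25 (adjusted p between 0.15 and 0.53), and in exposed pool 2 alone, at -0.24 (0.39). The groups of Nkx1-2, Nkx2-2, Nkx2-9 and Nkx6-2, which mark caudal and ventral progenitors, overlapped. Their log2 fold changes were -0.71, -0.37, 0.66 and -1.44, with adjusted p of 0.21, 0.22, 0.52 and 0.13. Nkx1-2, Nkx2-9 and Nkx6-2 were dim, with mean signals of 48.85, 55.37 and 36.4.

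Among the 15 tested genes of craniofacial, limb and trunk mesenchyme and of arch epithelium, 5 were lower and 10 did not pass. Barx1, a factor of the first arch and of stomach mesenchyme, gave 571, 570.3 and 562 in controls against 317, 325 and 317 in exposed pools, with little spread within a group. It fell by 0.83 (SE 0.11, adjusted p = 0.0012), and stood at -0.80 in pool 2 alone (adjusted p = 0.015). Msx1, which responds to BMP signals in neural crest, arches and limb buds, gave 2299.5, 2269.5 and 2412 in controls against 1310.0, 1602.5 and 1520.1 in exposed pools at its brightest probe set. It fell there by 0.66 (SE 0.10, adjusted p = 0.0018), while under median centring it stood at -0.36 (adjusted p = 0.11).

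Pitx1, a factor of the hindlimb and the oral ectoderm, gave 301, 362 and 229 in controls against 128, 149 and 85 in exposed pools. All values of the exposed pools were below those of the controls, with exposed pool 3 the lowest. Pitx1 fell by 1.32 (SE 0.26, adjusted p = 0.0052), and in pool 2 alone it stood at -0.97 (adjusted p = 0.063). Lhx6, expressed in the first arch and in ventral forebrain interneurons, gave 183, 255 and 195 in controls against 67.1, 96.5 and 63.1 in exposed pools. It fell by 1.49 (SE 0.25, adjusted p = 0.0026), and with the spike covariate Pitx1 and Lhx6 stood at -0.44 and -0.73, neither of them called (0.72 and 0.52). Prrx1, a factor of limb and face mesenchyme, gave 2861, 2992 and 2648 in controls against 2333.5, 2121.5 and 1956 in exposed pools at its brightest probe set and fell there by 0.41 (SE 0.10, adjusted p = 0.011), a call that ended under median centring (-0.11, adjusted p = 0.6) and without control pool 2 (0.055).

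Alx1, which acts in the frontonasal mesenchyme, gave 416, 497 and 555 in controls against 605, 570.4 and 529.6 in exposed pools and was not called. The groups overlapped, and the log2 fold change was 0.22 with a 95% interval from -0.088 to 0.53 (adjusted p = 0.24). Under median centring and quantile normalization Alx1 was called higher, at 0.52 and 0.48 (adjusted p = 0.048 and 0.033). Msx2, Prrx2, Lhx8 and Lhx9 stood at -0.19, -0.21, -0.26 and -0.10, none of them past the threshold (adjusted p of 0.31, 0.16, 0.16 and 0.6). Nkx2-3 and Nkx2-6, of the pharynx and gut, overlapped between the groups, at -0.97 and 1.27 (adjusted p = 0.14 and 0.11). Nkx2-6 was dim, with a mean signal of 64.92.

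The sine oculis family held members called in opposite directions, Six2 and Six5 lower and Six4 higher. Six5, which lies next to the myotonic dystrophy kinase gene, gave 429, 431 and 500.2 in controls against 235.5, 183 and 281 in exposed pools. It fell by 0.98 (SE 0.18, adjusted p = 0.0039), and stood at -1.68 with the spike covariate (adjusted p = 0.036) and at -1.31 in pool 2 alone (0.0073). Exposed pool 2, the one nearest to the controls in the spike ratio, had the lowest Six5 signal. Six2, which keeps kidney progenitors and acts in head mesenchyme, gave 392.5, 472 and 524 in controls against 336, 241.5 and 310.3 in exposed pools and fell by 0.65 (SE 0.17, adjusted p = 0.019), whereas its neighbour Six3 did not pass. The call of Six2 ended under each other scaling (adjusted p between 0.11 and 0.22) and without control pool 2 (0.065) or 3 (0.058).

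Six4, a factor of muscle precursors and placodes, was the only member read as higher. Its brightest tested probe set gave 659.7, 682 and 648 in controls against 947, 958 and 1001 in exposed pools, an increase of 0.55 (SE 0.09, adjusted p = 0.0029). Pools of a group were close together and each exposed pool was brighter than each control. A further probe set, 1439753_x_at, was also higher, with 647, 577 and 617 in controls against 927, 772 and 965.5 in exposed pools and a log2 fold change of 0.53 (adjusted p = 0.0095). The third, 1425767_a_at, was lower, with 703, 811 and 603 in controls against 233.5, 513 and 246 in exposed pools and a log2 fold change of -1.18 (adjusted p = 0.012). Exposed pool 2 was the highest of the exposed pools at that probe set. With the spike covariate the 3 probe sets stood at 0.53, 0.15 and 0.27, none called, and the mean of the 3 gave -0.036 (adjusted p = 0.83). A direction for Six4 therefore depends on the probe set.

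Among the Hox cofactors, Pbx2 was lower at every probe set. Pbx2 encodes a TALE homeodomain protein that binds DNA with Hox proteins, and its brightest probe set gave 4367, 3948 and 4222.5 in controls against 2585, 2547 and 2217 in exposed pools. It fell by 0.77 (SE 0.09, adjusted p = 0.00077) and its other probe sets by 1.05 and 1.12. Meis3 gave 747, 679 and 691 in controls against 589, 589.7 and 493 in exposed pools and fell by 0.34 (SE 0.12, adjusted p = 0.048), a call that ended without any 1 pool except exposed pool 2 (adjusted p between 0.075 and 0.16) under each other scaling (between 0.21 and 0.85) and in pool 2 alone (0.26). Meis1 stood at -0.035 with a 95% interval from -0.25 to 0.18, and its groups overlapped, with 1804, 2054.5 and 2043 in controls against 1921, 1794 and 2043 in exposed pools.

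Meis2 and Pbx3 were read differently by their probe sets. For Meis2, 1417129_a_at gave 2818, 3244.5 and 2603 in controls against 1859.5, 2208 and 1646 in exposed pools and was lower, at -0.61 (adjusted p = 0.0072). By contrast 1447861_x_at gave 1169.8, 959 and 1016 in controls against 1546, 1188 and 1551 in exposed pools and was higher, at 0.44 (adjusted p = 0.031). The brightest, 1457632_s_at, stood at 0.46 (adjusted p = 0.052) and passed as higher under median centring (0.75, adjusted p = 0.0064) and without exposed pool 2 (0.65, 0.00027). Its sign turned with the spike covariate, to -0.23 (adjusted p = 0.65), and exposed pool 2 alone gave 0.057 (0.77). The fourth, 1440091_at, stood at -0.18 and was not called. For Pbx3, 1421193_a_at gave 1603, 1647 and 1559 in controls against 927, 1151 and 818 in exposed pools and was lower, at -0.75 (adjusted p = 0.003), while 1447640_s_at stood at 0.21 (adjusted p = 0.24).

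Of the 16 members with several tested probe sets, 2, Six4 and Meis2, were called in opposite directions (12.5%, against 8.58% of the 6515 such genes on the array). In 3, Msx1, Pbx2 and Pitx1, all tested probe sets were lower. In 5, Lhx4, Lhx9, Meis2, Prrx1 and Six4, the log2 fold changes spanned more than 1. The shares of all such genes with these traits were not counted, so the members cannot be set against them. Of all tested probe sets, 21.8% were lower. Prrx1 had the widest span: 1425527_at gave 714, 804 and 549.9 in controls against 93.3, 257 and 86.4 in exposed pools and fell by 2.42 (adjusted p = 0.0022), 1425526_a_at fell by 1.98 and 1432129_a_at by 0.86, whereas 1439774_at stood at -0.31 (adjusted p = 0.075). At 1425527_at exposed pool 2, whose spike ratio was nearest to the controls, was well above the other exposed pools, and with the covariate this probe set stood at -0.39 (adjusted p = 0.58). Lhx4 was lower at 1439905_at (-2.24, adjusted p = 0.011), a dim probe set with 104, 35.4 and 76.8 in controls against 14, 11.2 and 17.2 in exposed pools, and not at its other one (-0.33, 0.58). Lhx9 was lower at 1429905_at (-0.52, 0.0097) and not called at 3 others, of which 1431598_a_at had the most negative value of the gene (-1.27, 0.065). The platform table gives no positions of probe sets along a transcript, so that these readings could not be ordered by distance from its end.

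**Figure D5:**
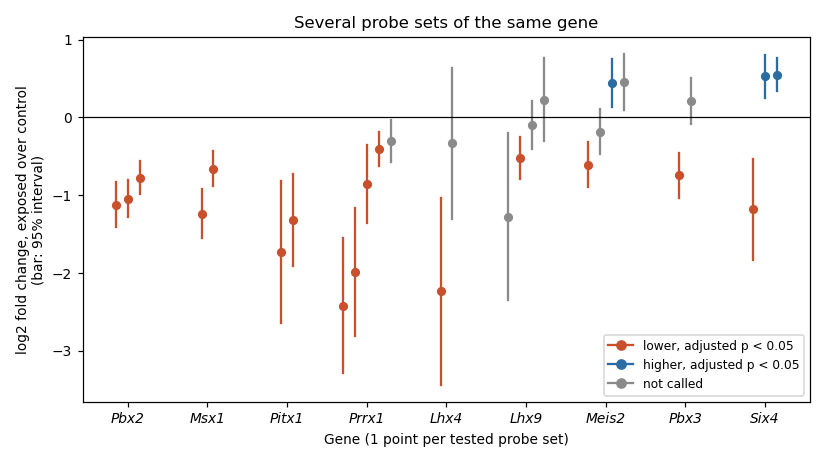
Log2 fold change of diabetes-exposed over control pools (vertical axis) with its 95% interval for each tested probe set of 9 members, in order within a gene. All probe sets of Pbx2, Msx1 and Pitx1 were lower (orange), while Six4 and Meis2 had probe sets called lower and others called higher (blue), and grey marks probe sets without a call.

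Of the 24 lower members, 14 were also lower under each of 3 other scalings of the arrays (median centring, quantile and cyclic loess normalization), 16 when any 1 pool was left out, and 11 under all of these and in exposed pool 2 alone. The 11 were Barx1, En2, Gbx1, Irx3, Irx5, Lhx1, Lhx2, Lhx6, Otx2, Pbx2 and Six5. Of these, Irx3 and Six5 alone passed with the spike covariate. With the t-test of the study's methods, after Benjamini-Hochberg adjustment, only Barx1, En2, Irx3, Irx5 and Lhx2 passed. How many of all lower genes held under the same fits was not counted. Under the 3 other scalings all genes had a median log2 fold change of 0.30, 0.14 and 0.081 and the members one of -0.16, -0.21 and -0.29. There 14, 16 and 17 members were lower and 5, 3 and 1 higher. The shares of all genes were 8.73%, 15.4% and 17% lower and 29.1%, 24.1% and 20.3% higher.

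Other homeobox genes, from a list of 69 outside these families, held more lower than higher genes. Of 53 tested, 17 were lower (32.1%, against 19.9% of all genes) and 5 higher (9.43%, against 17.6%). Their median was -0.35, against -0.00025 over all genes. The POU gene Pou3f3 of the developing brain fell by 1.58, Uncx of the somites fell by 1.89 and Pou4f1 of sensory neurons fell by 2.29, and each also passed with the spike covariate (adjusted p = 0.015, 0.043 and 0.038). Zhx1, a widely expressed zinc finger and homeobox gene, rose by 0.49, Isl1, of motor neurons and heart progenitors, by 0.50, and Meox2, of the somites, by 0.39. None of these rises passed with the spike covariate, where they stood at 0.34, 0.12 and 0.21 (adjusted p = 0.38, 0.8 and 0.72), or in exposed pool 2 alone (adjusted p = 0.051, 0.14 and 0.24). Meox2 also did not pass without control pool 1 or 2 or without exposed pool 1 or 3 (adjusted p between 0.062 and 0.079). Of 45 tested genes for signals and partners of these factors, 17 were lower (37.8%, against 19.9% of all genes) and 2 higher (4.44%, against 17.6%). Their median was -0.35. The corepressor genes Tle3 and Tle1, whose products many homeodomain proteins recruit, fell by 1.03 and 0.85, and Gli2, a transcription factor of Hedgehog signalling, fell by 1.13. With the covariate Tle3 and Gli2 passed (adjusted p = 0.025 and 0.025) and Tle1 did not (0.063). Aldh1a2, which makes retinoic acid, rose by 0.42 and Ldb2, a cofactor of LIM-homeodomain proteins, by 0.75. Neither passed with the covariate, at 0.21 and 0.45 (adjusted p = 0.61 and 0.68), or in exposed pool 2 alone (0.11 and 0.27), and Ldb2 did not pass without control pool 1 or 3 or without exposed pool 1 or 3 (adjusted p between 0.06 and 0.075).

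Markers of cell types moved with the groups as well. Among all genes 19.9% were lower and 17.6% higher. Of 14 neural progenitor markers 8 were lower (57.1%) and 2 higher (14.3%), and of 14 neuronal markers 8 (57.1%) and 1 (7.14%). Of 15 mesenchyme and limb bud markers 8 were lower (53.3%) and 1 higher (6.67%). All 13 cardiomyocyte markers were higher, with a summed signal between 26420.2 and 32216 in the control pools and between 50161 and 54130.2 in the exposed pools. The summed signal of the mesenchyme markers was between 21589 and 24185 in the controls and between 12465 and 13635 in the exposed pools, that of the neural progenitor markers between 50768 and 51662 and between 43859 and 46566, and that of the neuronal markers between 25611 and 29815 and between 21141 and 22443. Of 7 erythroid markers 1 was lower (14.3%), with sums that overlapped. Of 3 tested placenta and decidua markers 1 was lower: Prl8a2, a hormone of the decidua, gave 6522, 5699 and 6412 in controls against 39, 39.3 and 30.7 in exposed pools, while Dcn and Des, which embryonic tissue expresses too, did not pass, and 5 others were dim in every pool, at most at 35.2. Whether these shifts have a part in the levels of the homeobox genes was not tested.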

How the data were processed

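RNA was measured in 6 pools of whole embryos, 3 per group, with 1 array each. For each probe set the authors deposited a linear signal intensity from GCOS and MAS5 (versions not given in the sources used here), with each array scaled to a common mean: after trimming 2% at each end each array averaged 500.0. Signals are thus relative to the other transcripts of a pool, and the number of arrays limits the precision. Medians ran from 74.0 to 102.8.

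Log2 was taken of the deposited intensities. Of 45101 probe sets, 64 Affymetrix controls and the dimmest 33.3% of the others, by their mean over all arrays, were left out. The 30025 left were fitted in limma 3.58.1 (R 4.3.3, lmFit, eBayes with a trend, two-sided), with Benjamini-Hochberg adjustment over all of them. Each gene was represented by 1 tested probe set, that of the highest mean on the log2 scale. A gene is called lower or higher, or said to have fallen or risen, at an adjusted p under 0.05. Fold changes are diabetes-exposed over control. Gene numbers of all 63 members were found in RefSeq GRCm38.p6, which changed 0 symbols. The spike ratio averages 8 pairs of probe sets for poly-A spikes. Neighbours start within 2 Mb of each other.

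Members and lists were chosen with earlier results of these data known. Named were, in each family, all members at least 2-fold changed, up to 2 called in each direction with the smallest adjusted p, or the brightest where none was called, and members with opposite calls, and up to 3 genes in each direction in the lists of other homeobox genes and of partners. Further members are named by choice, with their values in view. The fit with pool 2 alone was added after the data were seen. The other alternatives were those given with the closing values. The fit was first tested on simulated data. Plots used Python 3.11.15 and matplotlib 3.10.9.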

Additional observations from a re-analysis of the deposited data

How the results depend on the processing

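Of 24 lower and 1 higher member genes, median centring left 14 and 5, quantile normalization 16 and 3, and cyclic loess 17 and 1. With no filter on dim probe sets 22 and 1 were called, and with eBayes without a trend 21 and 1. En1, Irx2 and Meis3 lost their calls under both and Msx3 under the latter. Lhx5 gained a lower call with eBayes without a trend (adjusted p = 0.049). The count with no filter takes in a lower gene otherwise left out as dim. With a pseudocount of 32, or with the dimmer 50% of probe sets left out, 2 genes were higher, with the mean of all probe sets 27 were lower and 0 higher, and with the spike covariate 2 were lower and 0 higher. The methods' t-test gave 23 lower and 1 higher genes unadjusted and 5 and 1 after Benjamini-Hochberg adjustment. At 2-fold, the 10 lower genes became 4 with that adjusted test and 2 with the covariate. Of 36 lower and 3 higher probe sets, median centring left 9 higher, quantile normalization 7, the 50% filter 5, and the removal of probe sets with suffix _x_at or _s_at, which can bind several transcripts, 1. The adjusted t-test gave 5 lower and 1 higher probe sets, the covariate 2 and 0, and exposed pool 2 alone 22 and 1. At 2-fold, the 18 lower probe sets became 11 with median centring, 4 with the adjusted t-test and 2 with the covariate. Leaving out 1 pool in turn gave 18 to 25 lower and 1 to 3 higher genes, 9 to 12 lower by 2-fold, 28 to 38 lower and 2 to 6 higher probe sets, and 16 to 21 lower by 2-fold. The most higher genes, 3, and the most higher probe sets, 6, came without exposed pool 2, and 2 genes and 5 probe sets were higher without control pool 1. Directions reversed for Meis2 without those probe sets (-0.61), for Msx3 with the covariate (0.012) and for Six4 with the mean of all probe sets (-0.036). The cause was not tested.

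The labels number the pools of both groups 1 to 3, but no source ties equal numbers together. The correlations of the deviations of same-numbered pools from their group means were 0, 0.076 and 0.118. With the replicate number as a block, 22 genes were lower and 2 higher, and 35 and 5 probe sets. Irx2 and Meis3 lost their call (adjusted p = 0.066 and 0.059) and Meis2 gained one (0.030). With 3 arrays a group and a linear signal, dim genes such as Gbx1 and Irx6 are the least precise.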
